A study of Mus musculus with 4 samples.

Results

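The trunk Hox genes of paralog groups 6 to 8 are Hoxa6, Hoxb6, Hoxc6, Hoxa7, Hoxb7, Hoxb8, Hoxc8 and Hoxd8. They were chosen by name as the complete set of mouse Hox genes in these 3 paralog groups, a rule that uses no measured value, and are 8 of the 53397 genes in the expression table. RNA was sequenced from the dissected posterior epiblast of wild type mouse embryos, where the progenitors of the body axis reside, at embryonic day (E) 7.5 and at E8.5. The comparison sets the RNA of this region during head development, at the earlier stage, against that during trunk development. Each stage has 2 libraries, described as separate biological replicates, and each library was made from a pool of dissected tissue whose number of embryos is not given in the sources used here. No allele, transgene or treatment distinguishes the stages.

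Hox genes encode homeodomain transcription factors and lie in 4 clusters, named A to D. In every cluster the genes are switched on one after the other during gastrulation and axial extension, those at the 3′ end of the cluster first, and the position of a gene in its cluster matches the place along the head to tail axis where it acts. Genes of the middle groups are known for patterning the thoracic region, where ribs form. Hoxa6 and Hoxa7 lie in the A cluster on chromosome 6, Hoxb6, Hoxb7 and Hoxb8 in the B cluster on chromosome 11, Hoxc6 and Hoxc8 in the C cluster on chromosome 15, and Hoxd8 in the D cluster on chromosome 2.

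All 8 trunk Hox genes were higher at E8.5 than at E7.5. The smallest ratio of read counts per library size was that of Hoxb6, at 4.50, and the largest that of Hoxc6, at 94.6. Per length, the members of the B cluster were the most abundant at E7.5, and they had ratios between 4.50 and 9.82, whereas both members of the C cluster and Hoxa7 had 45 reads or fewer over both E7.5 libraries and ratios of 39.1 or more. Hoxa6 had the lowest mean level per length at both stages. In limma, 8 of 8 members passed an adjusted p under 0.05 in the direction of E8.5, where 25.6% of all 13903 genes tested did so. None of the 8 was lower, also at an unadjusted p under 0.05 and with edgeR or DESeq2 on the recovered reads, while 26.4% of the genes tested were lower in limma. All 8 had a log2 fold change of at least 1 as well, a criterion that 4.48% of the genes tested met. This held with the pseudocount of 1, whereas with a pseudocount of 4 the log2 fold change of Hoxa6 was 0.59. The median log2 fold change was 3.01 over the members and -0.0074 over all genes tested. Of these members, Hoxa6, Hoxc6 and Hoxc8 passed the filter on low values, a normalized count of at least 1 in at least 2 libraries, only through their E8.5 libraries and so had to differ. Hoxa7 reached the minimum in both E8.5 libraries and in 1 of the E7.5 libraries, and the other 4 members in all libraries. With 1 E8.5 library left out and the filter applied again, 5 members were tested and 5 were higher, both without replicate 1 and without replicate 2.

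The values are normalized counts, which are reads assigned to a gene divided by a library factor, on a scale close to that of CPM. Every value was a whole number of reads times a step fixed for its library, so the reads could be recovered, and they numbered between 18488218 and 19493342 per library. A single read was worth a normalized count between 0.0507 and 0.0562. Markers of the posterior epiblast and its axial progenitors were present at both stages. The marker T was not among those analysed. All 15 that were analysed passed the filter, and each had a normalized count of at least 4.51 in every library. Their summed normalized count went from 1561 and 1596 in the E7.5 libraries to 1857 and 1839 in those of E8.5. Cdx4 went from 65.1 and 67.8 to 788 and 808, and without Cdx4 the sum of the others fell. Of these 15, 5 were higher and 8 lower at E8.5. Markers of other cell types differed between the stages as well. All 12 markers of visceral and gut endoderm fell, from a summed normalized count of 2420 and 2324 at E7.5 to 296 and 303 at E8.5. Of the 9 blood markers tested, 8 rose and 1 fell, and the summed normalized count of the list went from 29.4 and 28.8 to 430 and 434. Of 10 endothelial markers 8 rose and 1 fell, with summed normalized counts going from 122 and 119 to 255 and 229. Of 8 markers of lateral plate and limb mesenchyme tested, 6 rose and 2 fell, with summed normalized counts going from 274 and 259 to 312 and 317, and of 5 allantois markers 4 rose and 1 fell, with sums going from 98.7 and 94.4 to 123 and 130. Of 8 surface ectoderm markers 2 rose and 4 fell, and of 4 neural markers tested 2 rose and 1 fell. Of 12 presomitic and paraxial mesoderm markers 5 rose and 5 fell. Over all genes tested, 25.6% rose and 26.4% fell. Of 5 housekeeping genes read as signs of RNA quality, Hprt (log2 fold change -1.15) and Ppia (-0.29) fell and the other 3 were not called. The part of these cell types in the values of the trunk Hox genes was not tested. In tissue pools, fewer expressing cells and less RNA per cell cannot be told apart.

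Hoxb8, the most 5′ trunk Hox gene of the B cluster and a gene whose misexpression in mouse limb buds induces a second signalling centre, had normalized counts of 9.78 and 7.35 at E7.5 and of 86.2 and 80.9 at E8.5. Both E8.5 libraries lay far above both E7.5 libraries. The log2 fold change on the log2(value + 1) scale was 3.15 (SE 0.11, limma adjusted p = 8.9e-12). From 319 reads in the E7.5 libraries and 3192 in the E8.5 libraries, the ratio per library size was 9.82, with a 95% exact interval from 8.75 to 11.1. This interval and the others of its kind cover counting error only. The gene (ENSMUSG00000056648.5) spans chr11:96281905-96285315 on the plus strand of GRCm38 in 2 exons.

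Hoxb7, which in the mouse is also active in the ureteric bud of the kidney, had normalized counts of 2.30 and 3.09 at E7.5 and of 26.1 and 25.9 at E8.5. The E8.5 libraries differed by less than counting error, and the stages did not overlap. The log2 fold change was 2.88 (SE 0.14, limma adjusted p = 3.9e-10), and the ratio was 9.56 with an interval from 7.79 to 11.8. Hoxb6, whose misexpression in mouse presomitic mesoderm induces ribs outside the thorax, had at E7.5 the highest level per length of the 8, with normalized counts of 10.8 and 10.3. At E8.5 it had 47.6 and 47.1. Its replicates were close at both stages, and it had the smallest ratio of the 8, at 4.50 with an interval from 4.03 to 5.03. The log2 fold change of Hoxb6 was 2.07 (SE 0.10, limma adjusted p = 2.2e-10). Hoxb7 lies at chr11:96286623-96290162 and Hoxb6 at chr11:96292476-96301569, both on the plus strand.

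Hoxc6, which marks the level of the forelimb and upper thorax, had normalized counts of 0.337 and 0.811 at E7.5 and of 58.0 and 52.9 at E8.5. The E7.5 values rest on 6 and 16 reads, and the E8.5 values on 1105 and 1014. On the log2 scale the difference was 5.18 (SE 0.16, limma adjusted p = 1.2e-12), the largest among the members, and the ratio was 94.6 with an interval from 62.3 to 151. Hoxc8, whose loss in mice transforms thoracic and lumbar vertebrae towards more anterior identities, had normalized counts of 0.787 and 0.761 at E7.5 and of 50.5 and 54.0 at E8.5. Both E7.5 libraries lay below 1 and both E8.5 libraries above 50. The log2 fold change of Hoxc8 was 4.91 (SE 0.14, limma adjusted p = 3.0e-13), with a ratio of 67.6 and an interval from 46.9 to 101. Hoxc8 lies at chr15:102990607-102994111 and Hoxc6 at chr15:102998257-103011881, both on the plus strand.

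Hoxa7, a gene whose broad misexpression in mice alters the vertebrae at the base of the skull, had normalized counts of 1.52 and 0.913 at E7.5 and of 47.1 and 46.6 at E8.5. The E8.5 libraries differed by less than counting error, while the E7.5 libraries rest on 27 and 18 reads. Hoxa7 thus had a log2 fold change of 4.45 (SE 0.15, limma adjusted p = 3.5e-12), and its ratio was 39.1 with an interval from 29.1 to 53.8. Hoxa6, which lies next to Hoxa7 in the A cluster, had normalized counts of 0.112 and 0.152 at E7.5 and of 1.47 and 3.03 at E8.5. These values rest on 2 and 3 reads at E7.5 and on 28 and 58 reads at E8.5. The E8.5 libraries of Hoxa6 differed more from each other than those of 98.1% of the 1578 genes with a mean within 1.5 times its own. The log2 fold change of Hoxa6 was 1.48 (SE 0.22, limma adjusted p = 4.7e-05), the smallest of the 8 on this scale. Its ratio, however, was 16.9 with an interval from 6.96 to 53.3, and thus above that of Hoxb6. The pseudocount of 1 is large beside the E7.5 value of Hoxa6, and with a pseudocount of 0.25 its log2 fold change was 2.64 and that of Hoxb6 was 2.14. Hoxa6 lies at chr6:52206288-52208722 and Hoxa7 at chr6:52214491-52221854, both on the minus strand.

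Hoxd8, the only trunk Hox gene of the D cluster, had normalized counts of 1.41 and 1.72 at E7.5 and of 15.0 and 17.0 at E8.5. The stages did not overlap. Its log2 fold change was 2.73 (SE 0.16, limma adjusted p = 1.7e-09), and the ratio was 10.2 with an interval from 7.79 to 13.5. Hoxd8 lies at chr2:74704615-74707933 on the plus strand. For every one of the 8 members both E8.5 libraries were above both E7.5 libraries, which was the case for 37.2% of the genes tested. With 2 libraries against 2, the exact two-sided permutation test of a single gene has a smallest p of 0.333, which it gave for each member.

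**Figure D1:**
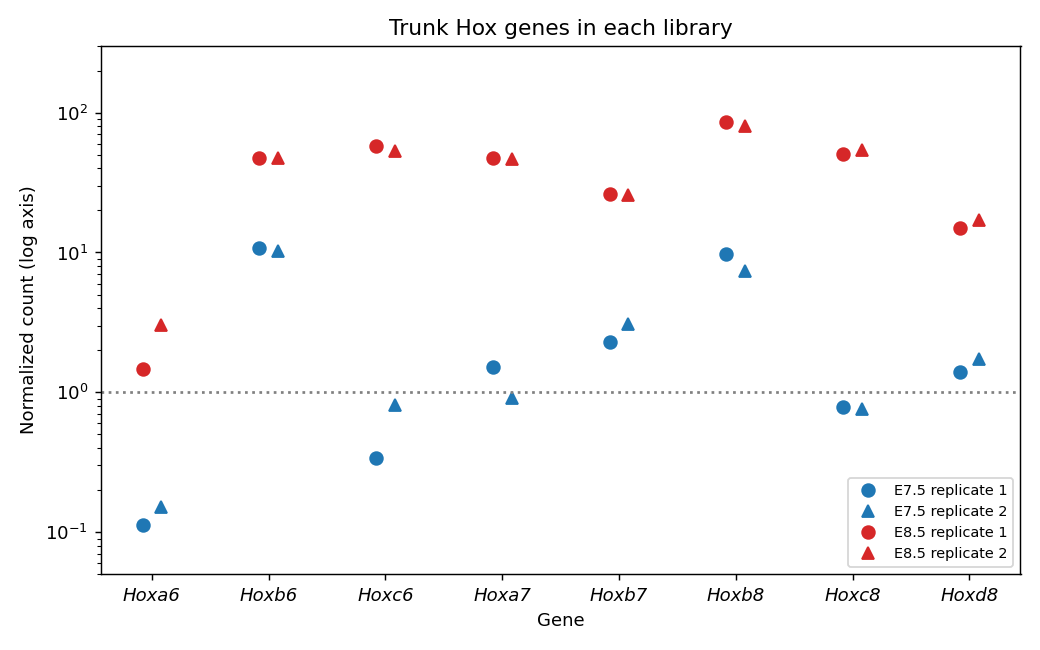
Normalized count of each trunk Hox gene (log axis) in the 4 libraries, with E7.5 in blue, E8.5 in red, circles for replicate 1 and triangles for replicate 2. The red points lie above the blue points for all 8 genes, and at E7.5 the values of Hoxa6, Hoxc6 and Hoxc8 lie below the dotted line at 1, the minimum of the filter.

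Promoters, taken as 250 bases before to 50 after the RefSeq start on GRCm38.p6, were given for 4 of the 8 members, Hoxa6, Hoxa7, Hoxb8 and Hoxd8. Letters searched on both strands were TTTATG for Cdx factors, CTTTGA for Tcf and Lef factors, TGATTNAT for Hox with Pbx, and TGACAG for Meis. For retinoic acid receptors the letters were AGGTCA, which are a part of a receptor element and not the whole. The Cdx letters were present in 2 of the 4, Hoxa7 and Hoxb8, and in 11.9% of the 32851 promoters given. The retinoic acid receptor and Tcf letters were present in 1 of the 4, Hoxd8, and in 16.3% and 16.0% of all. The Hox with Pbx letters, held by 3.22% of all promoters, and the Meis letters, held by 19.2%, were in none of the 4, and Hoxa6 held none of the 5. The 3 promoters with a match are printed here so that the letters can be seen in place, in capitals. A match is a description of the letters, and binding was not measured in these libraries.
Hoxb8, chr11:96281655-96281954, plus strand: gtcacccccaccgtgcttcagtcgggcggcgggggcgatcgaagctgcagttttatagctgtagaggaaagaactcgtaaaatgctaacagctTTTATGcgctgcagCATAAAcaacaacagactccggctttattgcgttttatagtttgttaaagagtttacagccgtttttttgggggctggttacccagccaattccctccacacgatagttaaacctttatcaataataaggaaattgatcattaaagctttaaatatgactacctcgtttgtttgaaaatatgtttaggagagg
Hoxb8 held TTTATG from base -157 to -152 before the start and its reverse complement from -143 to -138, and this stretch lies directly before the gene described above with a ratio of 9.82.
Hoxa7, chr6:52218524-52218823, minus strand: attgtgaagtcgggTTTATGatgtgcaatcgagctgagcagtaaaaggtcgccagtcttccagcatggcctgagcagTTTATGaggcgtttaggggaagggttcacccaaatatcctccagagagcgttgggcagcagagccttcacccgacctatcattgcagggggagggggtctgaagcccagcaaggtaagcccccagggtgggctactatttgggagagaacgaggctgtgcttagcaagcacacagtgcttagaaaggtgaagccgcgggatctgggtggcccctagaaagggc
Hoxa7 held TTTATG from -236 to -231 and from -173 to -168. The RefSeq start used here lies inside the Hoxa7 gene as GENCODE vM21 gives it.
Hoxd8, chr2:74704365-74704664, plus strand: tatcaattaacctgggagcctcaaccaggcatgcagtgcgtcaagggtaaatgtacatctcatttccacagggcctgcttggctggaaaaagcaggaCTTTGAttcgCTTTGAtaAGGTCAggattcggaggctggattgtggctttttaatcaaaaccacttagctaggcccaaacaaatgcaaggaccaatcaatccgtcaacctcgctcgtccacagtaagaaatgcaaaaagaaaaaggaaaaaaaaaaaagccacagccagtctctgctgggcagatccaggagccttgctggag
Hoxd8 held CTTTGA from -153 to -148 and from -143 to -138, and AGGTCA from -135 to -130. The share of G and C was 42.3% for Hoxb8, 46.7% for Hoxd8, 55.7% for Hoxa7 and 62.0% for Hoxa6, against a median of 52.7% over all promoters given.

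The 8 members were then searched for sites of miR-196, a microRNA encoded within the A, B and C clusters themselves, on the 5′ side of group 9, and known to cleave the Hoxb8 transcript. The mature sequences from RefSeq (GRCm38.p6) are shown because all trunk Hox genes are compared with them, with the seed, bases 2 to 8, in capitals.
mmu-miR-196a-5p: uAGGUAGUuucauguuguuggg
mmu-miR-196b-5p: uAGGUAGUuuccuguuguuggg
Both share the seed AGGUAGU. Their loci are Mir196a-1 at chr11:96265187-96265208, Mir196a-2 at chr15:102973365-102973386 and Mir196b at chr6:52230129-52230150. Mature microRNAs are not measured in these libraries, and over their hairpins the normalized count was 0 in all 4 libraries for Mir196a-2 and Mir196b. For Mir196a-1 it was 0 in the E7.5 libraries and 0.525 and 0.470 in the E8.5 libraries.

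The annotated 3′ untranslated regions of GENCODE vM21 were compared with miR-196a-5p base by base without gaps. Hoxb8 held a site in which 21 of 22 bases form Watson-Crick pairs and the remaining base a G:U pair, at chr11:96284888-96284909. It is shown because it is the most complete site among the members, with the Watson-Crick pairs in capitals.
Hoxb8: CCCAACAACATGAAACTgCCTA
The best site of Hoxd8 had 15 Watson-Crick pairs, and those of the other members had 14 or fewer. An exact match to the seed, ACTACCT, was found in 4 members, against 6.51% of the 20890 genes with such a region. Hoxa7 held 4 matches, Hoxc8 2, and Hoxb6 and Hoxb7 1 each, while Hoxa6, Hoxc6, Hoxb8 and Hoxd8 held none. The 4 sites of Hoxa7 are shown as an example of several seed matches in 1 transcript, again with the Watson-Crick pairs in capitals.
Hoxa7, chr6:52215400-52215421: ggCAcagcCAaaAtACTACCTA
Hoxa7, chr6:52215363-52215384: agaggCActcccAAACTACCTA
Hoxa7, chr6:52215231-52215252: aaaccatgatcaAtACTACCTA
Hoxa7, chr6:52215210-52215231: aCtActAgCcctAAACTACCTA
The lower 2 of these overlap by 1 base. Members with a seed match, Hoxa7, Hoxc8, Hoxb6 and Hoxb7, had ratios from 4.50 to 67.6, and those without had ratios from 9.82 to 94.6. Those without an exact seed match include Hoxb8, with a ratio of 9.82, although it held the most complete site.

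Because the members differ in length, their levels were compared per kilobase of merged exons. At E7.5 the members of the B cluster held the first 3 places, with 5.37 ± 0.18 normalized counts per kilobase for Hoxb6, 3.25 ± 0.65 for Hoxb8 and 1.75 ± 0.36 for Hoxb7 (SD, n = 2), and the ranges of these 3 did not overlap. Below them came Hoxd8 at 0.570 ± 0.082, Hoxa7 at 0.423 ± 0.149, Hoxc8 at 0.273 ± 0.007, Hoxc6 at 0.239 ± 0.139 and Hoxa6 at 0.151 ± 0.032 normalized counts per kilobase. Among these, Hoxd8 and Hoxa7, Hoxc8 and Hoxc6, and Hoxc6 and Hoxa6 were neighbours with overlapping ranges and could not be ordered. The highest level was 35.5 times the lowest.

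At E8.5 the order was Hoxb8 at 31.7 ± 1.4 normalized counts per kilobase, Hoxb6 at 24.1 ± 0.2, Hoxc6 at 23.0 ± 1.5, Hoxc8 at 18.4 ± 0.9, Hoxb7 at 16.8 ± 0.1, Hoxa7 at 16.3 ± 0.1, Hoxd8 at 5.84 ± 0.52 and Hoxa6 at 2.57 ± 1.26 (SD, n = 2). Hoxb6 and Hoxc6 overlapped in range. The highest level was 12.3 times the lowest, and 5.43 times the lowest if Hoxa6 is left aside, against 22.5 times at E7.5 without Hoxa6. The levels of the members thus lay closer together at E8.5 than at E7.5. The upper part of the E8.5 order depended on the length used. Per kilobase of the longest coding transcript, Hoxc6 came first with 35.1 ± 2.3 normalized counts, ahead of Hoxb8 with 31.7 ± 1.4 and Hoxc8 with 28.0 ± 1.3, since merging the exons of Hoxc6 gives 2408 bases and its longest coding transcript has 1581. The first 3 places at E7.5 and the last place of Hoxa6 at both stages were the same under both lengths.

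**Figure D2:**
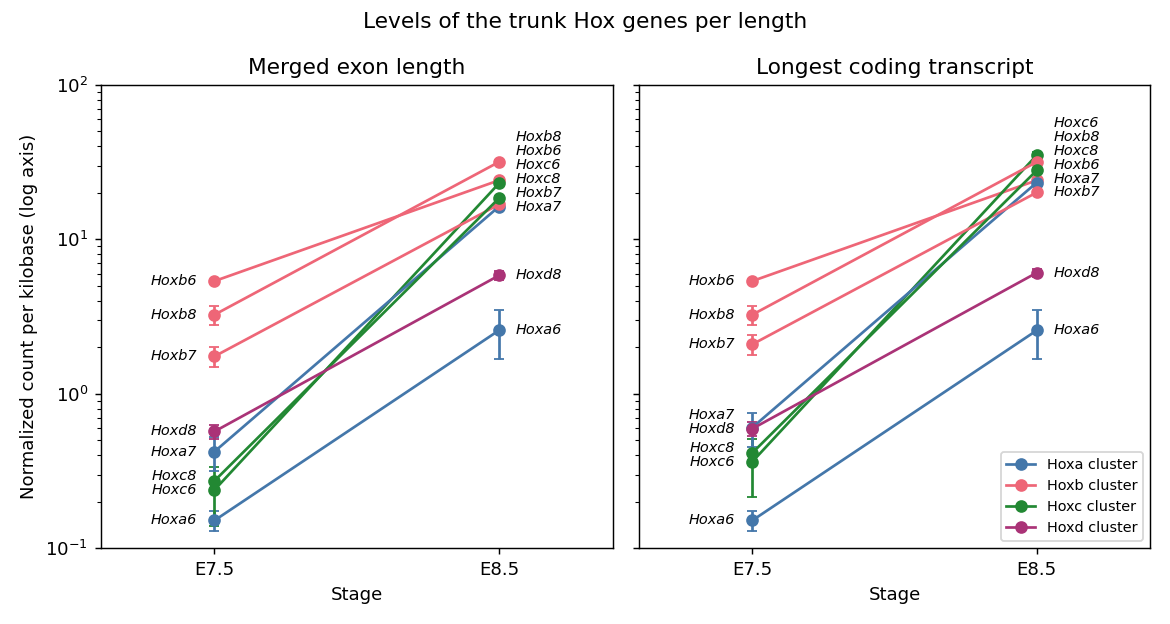
Normalized count per kilobase (log axis) of each trunk Hox gene at E7.5 and E8.5, per merged exon length on the left and per longest coding transcript on the right, with lines coloured by cluster, points at the mean of 2 libraries and bars from the lower to the higher library. The lines of Hoxc6, Hoxc8 and Hoxa7 rise most steeply, so that the members other than Hoxd8 and Hoxa6 lie close together at E8.5.

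Except for Hoxb8 and Hoxd8 in group 8, genes of the same paralog group had differences of unlike size. In group 6, the E8.5 to E7.5 ratios of the normalized counts ranged over library pairs from 4.36 to 4.63 for Hoxb6, from 9.66 to 26.9 for Hoxa6 and from 65.2 to 172 for Hoxc6, and these ranges did not overlap. In group 7 they ranged from 8.37 to 11.3 for Hoxb7 and from 30.7 to 51.6 for Hoxa7. In group 8 they ranged from 8.27 to 11.7 for Hoxb8, from 8.70 to 12.1 for Hoxd8 and from 64.2 to 71.0 for Hoxc8, so that Hoxb8 and Hoxd8 overlapped and Hoxc8 stood above both. Among neighbours in a cluster, Hoxb7 and Hoxb8 differed by 0.28 in log2 fold change and Hoxc6 and Hoxc8 by 0.27, and the ranges of both pairs overlapped. Hoxb6 and Hoxb7 differed by 0.81 and Hoxa6 and Hoxa7 by 2.97 on the same scale, and the ranges of these pairs did not overlap. The pseudocount of 1 widened the gap between Hoxa6 and Hoxa7, whose log2 fold changes in DESeq2 on the recovered reads were 4.09 and 5.30. By cluster, the 2 members in C had a median log2 fold change of 5.04, the 2 in A of 2.96 and the 3 in B of 2.88, and the single member in D had 2.73. The closeness of A and B depended on the pseudocount, which lowers the value of Hoxa6. In DESeq2 on the recovered reads both members in A lay above those in B, which ranged from 2.18 to 3.30. Of the 11 pairs of paralogs or cluster neighbours compared, 9 reached the smallest p that the exact permutation test allows here, 0.333 (0.407 after Benjamini-Hochberg adjustment over the 11), so that no pair could pass a threshold of 0.05.

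Reads of a gene and of a transcript on the opposite strand cannot be told apart in these libraries, because the SMART-Seq2 protocol, which copies polyadenylated RNA along its length, does not keep the strand. In the GENCODE vM21 annotation, 4 of the 8 members overlap an antisense transcript. Hoxaas3 (chr6:52175217-52215076, plus strand) covers the body of Hoxa6 and reaches into Hoxa7, where the exons of both share 586 bases, which is 20.4% of the exonic length of Hoxa7. Its normalized count went from 11.6 and 12.0 to 171 and 178, so that it differed in the same direction as Hoxa7. How much of the value of Hoxa7 comes from this shared stretch was not tested. Hoxb5os, which covers Hoxb6, went from 0.731 and 0.355 to 58.0 and 64.4, and Hoxd3os1, which covers Hoxd8, from 1.41 and 1.01 to 18.2 and 18.3. Neither shares exonic bases with the member it covers. On the same strand, the Hoxc5 gene spans Hoxc6 and Hoxc8 through its introns, and Hoxa3 spans Hoxa6, again with 0 shared exonic bases.

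The trunk Hox genes were set beside the other Hox genes. The 39 Hox genes together had a summed normalized count of 459 and 463 at E7.5 and of 1107 and 1106.5 at E8.5. The 8 members accounted for 5.88% and 5.42% of this sum at E7.5 and for 30.0% and 29.6% at E8.5, and their own sum went from 27.0 and 25.1 to 332 and 328. Groups 1 to 3, the first to be expressed, took 84.9% and 86.1% at E7.5, and 26.1% and 26.5% later at E8.5. Groups 9 to 13, which pattern the lumbar region, the tail and the limbs, took 4.54% and 4.32% at E7.5, and 30.8% and 30.7% later at E8.5. Genes differ in length, and per kilobase the share of the members was 6.16% and 5.80% at E7.5, and 32.5% and 32.4% later at E8.5.

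**Figure D3:**
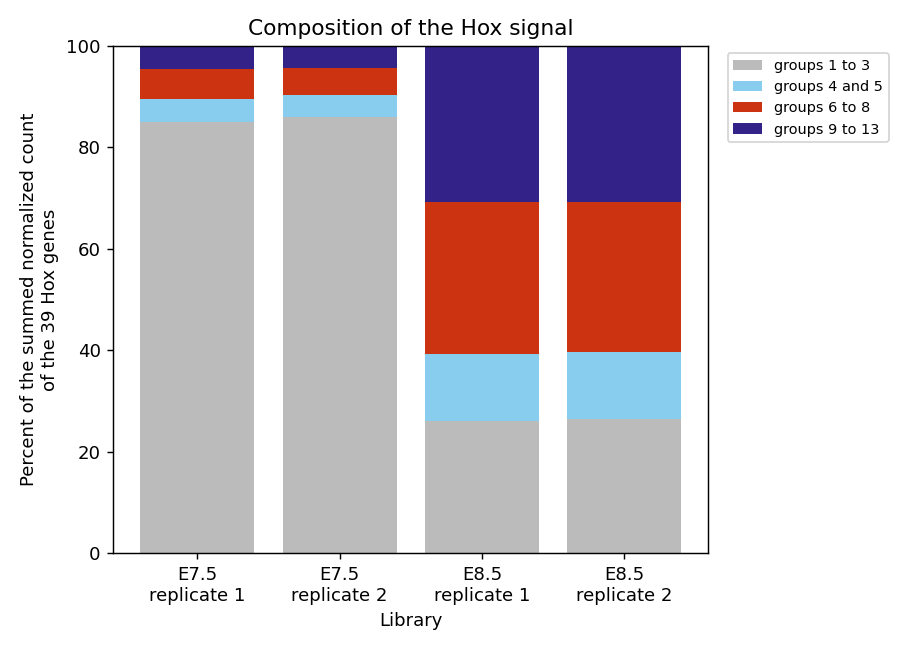
Percent of the summed normalized count of the 39 Hox genes taken by groups 1 to 3, 4 and 5, 6 to 8 and 9 to 13 in each of the 4 libraries. The share of groups 6 to 8 is 5.88% and 5.42% in the E7.5 libraries and 30.0% and 29.6% in the E8.5 libraries.

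In groups 4 and 5, which flank the trunk Hox genes on the 3′ side, 7 of 7 genes rose, with a median log2 fold change of 1.68. The largest value was that of Hoxc4, 4.08 (limma adjusted p = 1.6e-13). Of the 7, Hoxa4 and Hoxd4 passed the filter only through their E8.5 libraries and so could only be higher. In groups 1 to 3, 3 of 8 genes rose and 2 fell, and the median was 0.11. In groups 9 to 13, 9 of 16 genes passed the filter and 7 of them rose, with a median of 1.86. Of the 9, Hoxc9, Hoxc10 and Hoxa13 passed the filter only through their E8.5 libraries. Over all genes tested, 25.6% rose and 26.4% fell. On the log2(value + 1) scale, Hoxa9 had the largest log2 fold change of all Hox genes tested, 5.87 (limma adjusted p = 1.6e-14). Hoxa11 with 0.37 and Hoxa13 with 0.23 were not called. In the C cluster, the log2 fold changes of the tested genes other than the members were 4.08 for Hoxc4, 2.99 for Hoxc5, 4.67 for Hoxc9 and 2.46 for Hoxc10. The pseudocount of 1 lowers these values where the E7.5 level is low. This holds most for Hoxc10, whose mean normalized count went from 0.053 at E7.5 to 4.81 at E8.5. Whether the members differ from the other groups as a set was not tested.

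**Figure D4:**
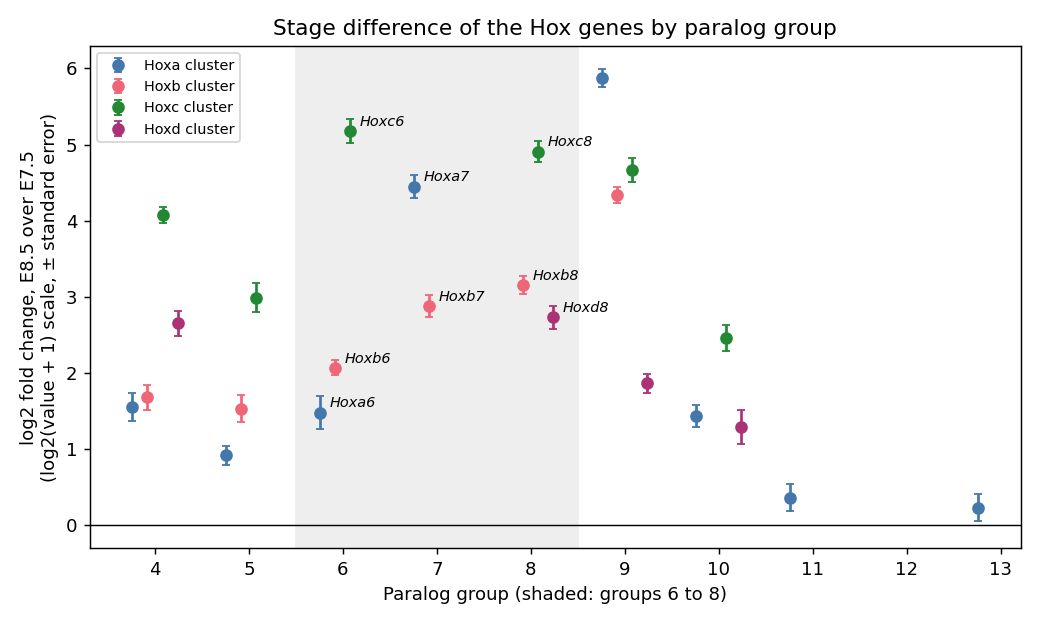
Log2 fold change from E7.5 to E8.5 on the log2(value + 1) scale with its standard error for the 24 Hox genes of groups 4 to 13 that passed the filter, by paralog group and coloured by cluster, with groups 6 to 8 shaded. The members run from 1.48 for Hoxa6 to 5.18 for Hoxc6, and the points of the C cluster lie above those of the A, B and D clusters in groups 4, 5, 6, 8 and 10.

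Trunk Hox genes are known to be activated by Cdx, Wnt, Fgf and retinoic acid signals and, for the later groups, by Gdf11. Of 18 such regulators tested, 8 rose and 7 fell, with a median log2 fold change of 0.16, where 25.6% of all genes tested rose and 26.4% fell. Cdx4, one of the 3 caudal-type homeodomain factors that activate Hox genes directly, had normalized counts of 65.1 and 67.8 at E7.5 and of 788 and 808 at E8.5, a log2 fold change of 3.57 (limma adjusted p = 1.6e-15). Its paralogs did not move with it. Cdx1 fell by 1.63 on the log2 scale, and Cdx2, at 243 ± 22 and 260 ± 0.4 (SD, n = 2), had a log2 fold change of 0.10 that did not pass the test (adjusted p = 0.22). Cyp26a1, which degrades retinoic acid, rose by 2.17, and Aldh1a2, the main enzyme of retinoic acid synthesis in the embryo, fell by 3.20.

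Polycomb proteins keep Hox genes silent and trithorax proteins keep them active. Of 18 Polycomb genes tested, 3 rose, 5 fell and 10 were not called, where 6670 of the 13903 genes tested were not called. The largest decreases were those of Cbx7 with -2.40 and Phc1 with -1.09, subunits of Polycomb repressive complex 1. The largest increases were those of Phc2 with 0.61 and Phc3 with 0.43. Ezh2, the H3K27 methyltransferase, had 0.08 (limma adjusted p = 0.30). Of 12 trithorax and demethylase genes, 3 rose and 1 fell, where 25.6% of all genes tested rose and 26.4% fell. Psip1 with 0.77 and the H3K4 methyltransferase Kmt2a with 0.60 rose most, and Wdr5 with -0.26 fell. Of 9 genes of TALE homeodomain proteins, with which trunk Hox proteins bind DNA, 3 were higher and 3 lower, beside the same shares over all genes tested. Pbx3, with the largest decrease, went from 25.1 ± 3.0 to 12.0 ± 0.7 normalized counts and Meis3, with the largest increase, from 22.2 ± 1.0 to 33.0 ± 1.1 (SD, n = 2). Of 5 reported targets of trunk Hox proteins that passed the filter, the adhesion molecule Ncam1 rose by 2.20 and the zinc finger gene Plagl1 by 1.90, and Igfbp3 fell by 0.62.

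The genes whose profile over the 4 libraries was nearest to the mean profile of the members, by Euclidean distance of centred log2(value + 1), were 2610528A11Rik, Sema3c, Gm53, Cdx4 and Hoxd3os1, with distances from 0.104 to 0.303. Sema3c, which encodes a secreted semaphorin, went from normalized counts of 0.731 and 0.811 to 15.2 and 18.2. Gm53, a noncoding transcript annotated beside Mir196a-1 in the B cluster, went from 0.506 and 0.355 to 13.5 and 13.3. With single members as the reference, Hoxb9 was nearest to Hoxa7, Hoxd3os1 to Hoxb8, Sema3a to Hoxc6, the ephrin receptor gene Epha5 to Hoxc8, the neuronal glycoprotein gene Gpm6a to Hoxd8, Ndnf to Hoxb7, Upk1a to Hoxb6 and Gm43719 to Hoxa6. These distances depend on the pseudocount of 1 where values are low, so a near gene need not have a like ratio. Mean normalized counts went from 0.374 to 4.55 for Upk1a and from 10.5 to 47.4 for Hoxb6. They went from 0.025 to 1.93 for Gm43719 and from 0.132 to 2.25 for Hoxa6. Upk1a, Gm43719, Sema3c, Gm53 and 2610528A11Rik passed the filter only through their E8.5 libraries. Profiles over 2 stages and 4 libraries can be alike in many genes.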

How the data were processed

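RNA-seq of mouse posterior epiblast was analysed in 2 libraries per stage. Per the study's methods and the submitters' processing notes, the authors prepared SMART-Seq2 libraries, sequenced single-end reads of 75 bases, aligned them to mm10 with STAR and normalized the read counts. The methods name DESeq2 and the notes edgeR. The counting program and annotation are not given in the sources used here. The deposited values are a normalized signal, whole reads times a step per library, and 100% gave whole reads within 0.0001. Reads totalled 19111464 and 19493342 in the E7.5 libraries and 18488218 and 18515565 in the E8.5 libraries.

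A gene was tested where 2 or more libraries reached a value of 1, which held for 13903 of 53397. Stages were compared on log2(value + 1) with limma 3.58.1 (lmFit, eBayes with trend, R 4.3.3), with Benjamini-Hochberg adjustment over all genes kept and calls at an adjusted p under 0.05. Alternatives used edgeR 4.0.16 and DESeq2 1.42.0 on the recovered reads, other pseudocounts, filters and scalings, a replicate block and leaving out each library. Positions, lengths and overlaps came from GENCODE vM21 (GRCm38), promoters and microRNAs from RefSeq. The search for miR-196 sites and the second length were added after seeing the data.

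Genes named are the 8 members, the other Hox genes with the largest changes, up to 2 genes per direction in each further list, the nearest profiles and overlapping genes. Members and lists were chosen with earlier results of these data known. Some genes are not reported here. Same-numbered libraries did not deviate together (r = -0.0025 over the genes kept), so the numbers were not taken as pairs.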

Additional observations from a re-analysis of the deposited data

How the results depend on the processing

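All 111 log2 fold changes of single members computed under an alternative kept their sign and their call, of which 32 left out 1 library. With 1 library left out, a stage has a single library, which is assumed to vary like the other stage, and the fits without an E8.5 library still hold Hoxa6, Hoxc6 and Hoxc8, which miss the filter if it is applied again. The largest adjusted p among them was 0.0282, for Hoxa6 in limma without the filter, and Hoxa6 was not tested at a minimum of 5. The count of 8 members higher and 0 lower was also obtained with the replicate block, which changed no call. The median log2 fold change of the members, 3.01, was 3.21 with a pseudocount of 0.25, 2.49 with a pseudocount of 4, 3.15 over the 7 members left at a minimum of 5, 3.09 with scaling to total reads, 3.69 in edgeR and 3.73 in DESeq2. Chosen after seeing the data, leaving out E8.5 replicate 1 with the filter applied again left 5 members tested, of which 5 were higher with a median of 2.87, and leaving out E8.5 replicate 2 gave 5 and 2.88, since Hoxa6, Hoxc6 and Hoxc8 then missed the minimum. Scaling to total reads gave 3870 higher and 2549 lower genes against 3562 and 3671, and moved the median of all genes to 0.08. Hoxa6, with 5 reads at E7.5, is the member least well measured, and its log2 fold change ranged from 0.59 to 4.09 over the alternatives. With 2 pools per stage the spread between pools is estimated from few values and is shared across genes by limma.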
